A study of Mus musculus with 3 samples.

Results

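The genes of the cytosolic ribosomal proteins were examined in macrophages stimulated a second time with Lipid A. A gene belonged to the set when its symbol had the form of a ribosomal protein of the large subunit (Rpl) or the small subunit (Rps), and when at least 1 of its transcripts was annotated as protein coding. The set held 80 genes, 49 of the large and 31 of the small subunit, of 55450 annotated genes, 21901 of them protein coding. The rule used names and annotation only and no measured value. RNA was taken from the cytosol of macrophages grown from the bone marrow of C57BL/6J mice, an inbred strain. The cells had first received Lipid A, the membrane anchor of lipopolysaccharide and a ligand of TLR4, at 100 ng/ml during 12 h. After 12 h without it they received it once more at 100 ng/ml during 20 min. There was 1 group of 3 libraries, called biological replicates 1, 2 and 3 in the labels but traced to a single donor identifier. Errors and the sign-flip p-value thus measure the spread between these libraries, which may be technical. The edgeR p-values below compare the libraries with counting error only. No unstimulated library was analysed here, and every value is a level and not a response.

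The eukaryotic ribosome joins a large subunit, which forms peptide bonds, to a small subunit, which reads the messenger RNA. Its proteins are made in the cytosol in near-equal numbers, and most of them travel to the nucleolus and are built into subunits there. Most of their messenger RNAs begin with a run of pyrimidines, the 5′ terminal oligopyrimidine or TOP motif, through which the kinase mTOR adjusts their translation. In mammals these genes have left many processed pseudogenes, intron-free copies made by reverse transcription of the messenger RNA.

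Expected counts, the estimated reads per gene, totalled between 32051208 and 47857691 per library on annotated genes. Every macrophage marker examined was above 1 TPM in every library, from Mertk at a mean of 40.5 TPM to Lyz2 at a mean of 3120.4 TPM, whereas the B cell, T cell and erythroid markers were each at 0.07 TPM or less in every library. Of 4 neutrophil markers only S100a8 reached 1 TPM, with a summed level of 3.84, 3.96 and 5.38 TPM for the list, and the 3 stromal and endothelial markers summed to 0.37, 0.24 and 0.30 TPM. TPM corrects counts for transcript length and gives each library the same total, 1000000. Protein-coding genes held 32.7%, 27.4% and 27.8% of that total in replicates 1, 2 and 3 of the first quantification, and 16.4%, 15.2% and 12.1% in the second. TPM is printed as deposited, and was rescaled to 1000000 over protein-coding genes for the TPM ratios of second over first quantification. The subunit and paralog differences used TPM as deposited in both quantifications.

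Ribosomal protein genes were among the most abundant messenger RNAs. Of the 80 genes, 77 reached 1 TPM or more in every library, as did 41.5% of protein-coding genes and 17.2% of annotated genes. Their median level was 180 TPM in replicate 1, 193 TPM in replicate 2 and 155 TPM in replicate 3, a mean of 176 ± 19 TPM (SD, n = 3). The median over the 9346 protein-coding genes with a mean of at least 1 TPM was 8.07 ± 0.52 TPM. The set held 4.87%, 6.27% and 5.15% of all protein-coding TPM, a mean of 5.43% ± 0.74, but 1.39% ± 0.22 of protein-coding counts (SD, n = 3 for both), and its transcripts are short. Of its genes, 14 stood among the 100 highest protein-coding genes by mean TPM and 67 among the 500 highest. The 78 genes of the mitochondrial ribosome, which makes the proteins encoded in mitochondrial DNA, had a median of 12.4 ± 0.4 TPM.

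Apart from the paralogs Rpl3l, Rpl10l, Rpl39l and Rps27l, described below, the levels lay close together. Of the other 76 genes, 51 had a mean between 100 and 300 TPM, 12 were above 300 TPM and 13 were below 100 TPM. The 90th percentile was 4.47, 3.86 and 4.05 times the 10th percentile in replicates 1, 2 and 3. Over all 80 genes, paralogs included, large subunit genes had a median of 155, 175 and 135 TPM, against 188, 205 and 173 TPM for small subunit genes. On the log2(TPM + 1) scale the large subunit median was lower by 0.28, 0.23 and 0.36 in the 3 libraries, a mean difference of -0.29 ± 0.06 (SD, n = 3). The direction was the same in every library, and the exact two-sided sign-flip test over libraries gave p = 0.25, the smallest that 3 libraries allow. The difference was -0.26 ± 0.02 with the 4 paralogs left out, -0.18 ± 0.10 in the second quantification and -0.79 ± 0.03 with means in place of medians (SD, n = 3 for each). The means run over all 80 genes and include Rpl10l, Rpl3l and Rpl39l, large subunit paralogs at 0.41 TPM or less. Such low values weigh more on a mean than on a median. Of the 13 genes below 100 TPM, 12 encode large subunit proteins and 1 a small subunit protein. Of the 76 genes, 46 are of the large subunit, and above 300 TPM stood 6 of each subunit. Several of the 12, among them Rpl5, Rpl27 and Rpl35, shared reads with copies, as described below. The part of this sharing in the subunit difference was not tested.

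**Figure D1:**
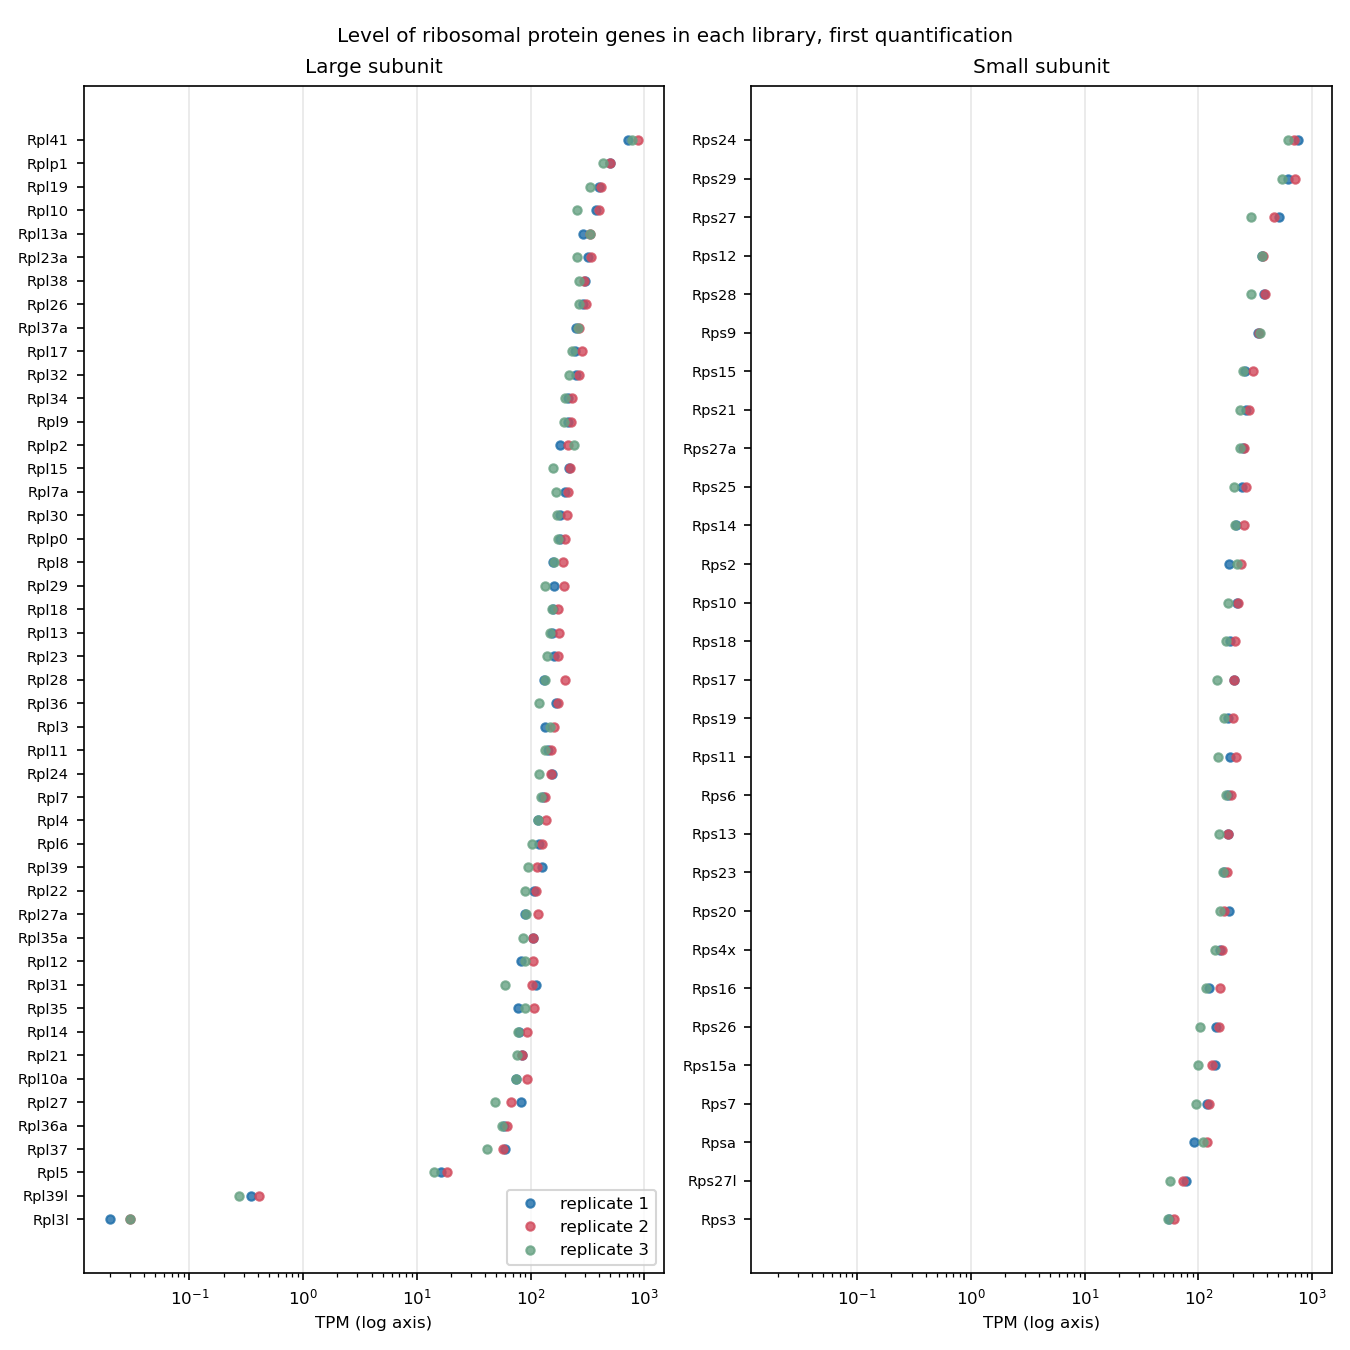
Level of each ribosomal protein gene in TPM (log axis) in replicates 1, 2 and 3, large subunit on the left and small subunit on the right, sorted by mean; Rpl10l, at 0 in every library, cannot be drawn on a log axis, and a few genes are not shown. Most genes lie between 100 and 300 TPM, and Rpl5, Rpl39l and Rpl3l stand below the rest of the large subunit.

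In the large subunit, Rpl41, which encodes the smallest ribosomal protein, had the highest level, at 724, 876 and 783 TPM in replicates 1, 2 and 3. Rplp1 followed at 495, 498 and 435 TPM. With Rplp2, at 182.1, 212 and 242 TPM, and Rplp0, at 180, 202 and 175 TPM, it encodes the stalk that recruits elongation factors. Within every library Rplp1 was the highest of the 3 and Rplp2 was above Rplp0, although the ranges of Rplp2 and Rplp0 over libraries overlapped. Rpl19 had 398, 415 and 336 TPM. Rpl10, a late-joining protein near the site of peptide bond formation, had 374, 399 and 257 TPM. Rpl13a, which in human monocytes also acts outside the ribosome to silence inflammatory messenger RNAs, had 291, 330.1 and 329 TPM. Rpl19 was above Rpl10 and Rpl13a in every library, and its range over libraries overlapped that of Rpl10 only.

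The lowest large subunit gene outside the paralogs was Rpl5, at 16.4, 18.3 and 14.2 TPM. Its protein binds 5S ribosomal RNA together with that of Rpl11, which had 142, 152 and 135 TPM. Rpl5 lay below every other main large subunit gene in every library. The next lowest were Rpl37 at 59.6, 56.8 and 40.9 TPM, Rpl36a at 58.6, 62.2 and 56.4 TPM, Rpl27 at 82.7, 67.5 and 48.1 TPM, and Rpl10a at 74.6, 93.1 and 73.8 TPM. Rpl36a differed little between libraries, whereas Rpl27 and Rpl37 were lowest in replicate 3. For Rpl5 and Rpl27 the level depends on how reads are divided with identical copies, as described below. Rpl36a also shared reads, with 21.4% ± 2.6 of its family's counts in copies in the first quantification (SD, n = 3).

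In the small subunit, Rps24 led at 752, 695 and 611 TPM, followed by Rps29 at 619, 701 and 545 TPM, and the 2 overlapped. Rps27, a zinc finger protein, had 509, 460 and 292 TPM and was lowest in replicate 3. Rps12 had 366, 371 and 361 TPM, an SD of 5.43 TPM, and Rps28 had 374, 383 and 290 TPM. The stable Rps12 value belongs to TPM as deposited in the first quantification only. Rescaled to protein-coding genes in that same quantification, Rps12 was lowest in replicate 1 and highest in replicate 2, as given below. At the lower end stood Rps3, which lines the channel where messenger RNA enters, at 55.4, 61.2 and 54.3 TPM. Rpsa, known also as the laminin receptor, had 91.3, 119 and 110.0 TPM, Rps7 had 118, 123 and 95.3 TPM, Rps15a had 139, 133 and 99.2 TPM, and Rps26, which sits where messenger RNA leaves, had 142, 151 and 102 TPM. Rps3 was below these 4 in every library. Rps27a, whose product is made as a fusion with ubiquitin, had 246, 251 and 232 TPM and lay inside the range of the others.

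Level per length and counts ranked the genes differently. The 6 main genes with an effective length under 200 nt had a median of 318 TPM, against 171 TPM for the other 70. Effective length, the number of positions where a fragment can start, was 125 nt for Rps27 and 1681 nt for Rps3. Rps3 had 4635 expected counts in replicate 1, against 3042 for Rps27, although its TPM was lower there. Over the 76 genes Spearman's rho between effective length and mean TPM was -0.52 and Pearson's r with log2(TPM + 1) was -0.57, given as a description, since genes share libraries and TPM itself contains the length. Fragments of 250 to 400 nt were selected, per the labels, and the part of this selection in the short genes' values was not tested.

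The 4 paralogs within the set were at very different levels. Rpl10l, which replaces X-linked Rpl10 in the mouse testis, had 0 counts in every library, which allows up to 0.0759, 0.0468 and 0.0451 TPM (3 counts per library, counting error only). Rpl10l was at least 4932-fold, 8517-fold and 5707-fold lower than Rpl10 in replicates 1, 2 and 3 of the first quantification. In the second, Rpl10l was again at 0 and Rpl10 had 33.4, 37.7 and 23.8 TPM as deposited. The mean difference on the log2(TPM + 1) scale was -5.0045 in the second and -8.40 in the first. These values are not rescaled, and protein-coding genes held a smaller share of the total in the second. Rescaled, Rpl10 had 203, 247 and 197 TPM in the second, against 1144, 1458 and 927 in the first. Rpl3l, known from skeletal and heart muscle, had 1, 2 and 2 counts, or 0.02, 0.03 and 0.03 TPM, with exact 95% Poisson intervals of 0.00063 to 0.139, 0.0037 to 0.111 and 0.0036 to 0.107 TPM. Its main member Rpl3, which lies near the site of peptide bond formation, had 134, 162 and 149 TPM. Rpl39l, known from male germ cells, had 10, 19 and 13 counts, or 0.35, 0.41 and 0.27 TPM, which was 0.31% ± 0.05 of Rpl39 (SD, n = 3), a protein of the exit tunnel. Rps27l differed from these 3. It had 77.2, 73.6 and 56.6 TPM, 16.9% ± 2.2 of Rps27, and is known as a target of p53. Every Rps27l value was above every value of Rpl39l, Rpl3l and Rpl10l.

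Other paralogs, outside the symbol form or without a coding transcript, were set beside their main members. Rps4l, annotated as a transcribed processed pseudogene, had 1.86, 1.60 and 1.75 TPM, against 154, 162 and 141 TPM for Rps4x. Rps27rt, whose coding sequence is identical to that of Rps27, had 2.05, 1.79 and 1.57 TPM, so its few reads cannot be placed with certainty. Rpl22l1 had 32.2, 24.1 and 20.0 TPM, against 106, 111 and 88.5 TPM for Rpl22, a protein needed for T cell development in mice. Rpl7l1 had 22.8, 21.2 and 22.7 TPM, against 128, 134 and 124 TPM for Rpl7. Rpl36al was the exception, at 90.3, 97.2 and 75.1 TPM, against 58.6, 62.2 and 56.4 TPM for Rpl36a. Copies of Rpl36a, by the rule given below, held 19.3%, 24.3% and 20.5% of its family's counts in the 3 libraries. The size of this difference thus depends in part on how those reads were divided. Thus 8 of 9 paralogs were below their main member in every library, and Rpl36al was above it in every library by 0.55 ± 0.13 on the log2(TPM + 1) scale (SD, n = 3).

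Ribosomal proteins whose symbols do not have the common form were within the range of the set. Fau, which encodes a ubiquitin-like protein fused to the small subunit protein eS30, had 389, 439 and 408 TPM. Rps3a1 had 220.4, 251 and 233 TPM. Rack1, the scaffold on the head of the small subunit, had 88.8, 93.8 and 80.8 TPM.

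Between libraries most genes of the set shared the highest library but not the lowest. Levels were compared as CPM, counts scaled to a library total of 1000000, scaled with TMM factors, and edgeR's likelihood ratio test with the dispersion set to 0 asked whether a gene varied more than counting noise. Of the 78 genes with enough counts, 76 varied beyond counting noise at a Benjamini-Hochberg adjusted p under 0.05, as did 71.1% of the 12362 genes tested. Rpl39l was not among them. The median SD between libraries was 0.21 log2 units for ribosomal protein genes and 0.18 for all genes tested. Of the 78, 10 genes had a highest library at least 1.5 times the lowest, as did 24.8% of genes tested, and 0 of 78 reached 2-fold, as did 9.46%. The count at 1.5-fold was 2 without replicate 2 and 1 without replicate 3.

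In 76 of 78 genes the highest library was replicate 2, as it was in 35.1% of genes tested. The lowest was replicate 1 in 38 genes and replicate 3 in 40, against 4573 and 3995 of the 12362 genes tested. The genes' median position around their own mean was -0.10, 0.23 and -0.11 log2 units in replicates 1, 2 and 3, against -0.01, 0.01 and 0.00 over all genes tested. Both subunits showed the peak in replicate 2, with 46 of 47 large subunit genes and 30 of 31 small subunit genes highest there. The pattern was noticed in these data. With TPM as deposited, where replicate 2 has the lowest coding share, 61 of 78 genes were highest in replicate 2, as were 18.9% of genes tested. With DESeq2 size factors 76 of 78 were highest there, against 33.1% of genes, in the second quantification 77 of 78, against 37.1%, and with rescaled TPM 74 of 78, against 34%. All these scalings give shares of a library, so the shift is one of share and not of RNA per cell. Its cause was not tested.

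The most variable gene was Rpl31, which lies at the exit of the peptide tunnel, at 97.7, 119 and 66.3 CPM in replicates 1, 2 and 3, an SD of 0.43 log2 units. Rps27 had 97.7, 106 and 63.7 CPM, Rpl10 had 344, 419 and 258 CPM, and Rpl27 had 51.1, 48.2 and 32.8 CPM. All 4 were lowest in replicate 3, and Rpl27 alone among them was highest in replicate 1. Copies of Rpl27, described below, held 36.8%, 49.0% and 52.4% of its family's counts in replicates 1, 2 and 3. The CPM of Rpl27 thus depends on how reads were divided with them. With each gene summed with its copies, 0 genes of the set were highest in replicate 1. Rpl39l also ranked among the 5 largest SD values but rests on 10 to 19 counts, and its edgeR adjusted p was 0.46.

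Other genes of the translation apparatus were set beside them. In a list of 15 elongation factors and other TOP messenger RNAs, 12 were highest in replicate 2 and the median positions were -0.12, 0.15 and -0.02. All 15 varied beyond counting noise by edgeR. Eef1a1, which delivers transfer RNA to the ribosome, had 959, 1007 and 878 TPM, and Tpt1, a TOP messenger RNA of the translationally controlled tumour protein, had 695, 668 and 501 TPM. At the low end Nap1l1, a histone chaperone, had 28.3, 27.7 and 28.5 TPM and the initiation factor gene Eif3f had 27.2, 29.1 and 23.8 TPM. Of the 78 mitochondrial ribosomal protein genes, 61 were highest in replicate 2, with median positions of -0.07, 0.14 and -0.05. Of the ribosomal proteins and paralogs outside the symbol form, 7 of 9 were highest there. With TPM as deposited the counts in replicate 2 were 8 of 15, 34 of 78 and 5 of 9 for these lists.

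Genes that build ribosomes were most often highest in replicate 3. Of 20 ribosome assembly genes, 6 were highest in replicate 2 and 14 in replicate 3, as were 35.1% and 32.0% of genes tested, with median positions of -0.13, 0.05 and 0.08, and 15 of 20 varied beyond counting noise by edgeR. With TPM as deposited 4 were highest in replicate 2 and 10 in replicate 3. The nucleolar protein gene Ncl had 32.8, 37.6 and 46.3 TPM, and Ubtf, a factor of ribosomal DNA transcription, had 14.4, 13.5 and 13.6 TPM. Dkc1, of the pseudouridine synthase complex, had 1.74, 1.31 and 1.70 TPM, and Polr1b, a subunit of RNA polymerase I, had 0.98, 1.12 and 1.21 TPM. The levels of the assembly genes, with a median of 5.29 TPM, were far below those of the proteins they assemble. The difference in order between these lists was not tested.

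Replicate 2 also stood apart in RNAs that stay in the nucleus. Malat1 had 612, 156 and 637 TPM in replicates 1, 2 and 3, and Neat1 had 24.8, 12.7 and 52.4 TPM. All 3 nuclear RNAs examined, with Xist at 13.4, 0.66 and 3.42 TPM, were lowest in replicate 2, as were 5935 of 12360 genes with TPM as deposited. On TMM-scaled CPM all 3 were again lowest there, as were 3794 of 12362 genes tested. Between the other libraries the order differed, with Xist higher in replicate 1 and Malat1 and Neat1 higher in replicate 3. The part of these RNAs in the higher ribosomal protein levels of replicate 2 was not tested.

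**Figure D2:**
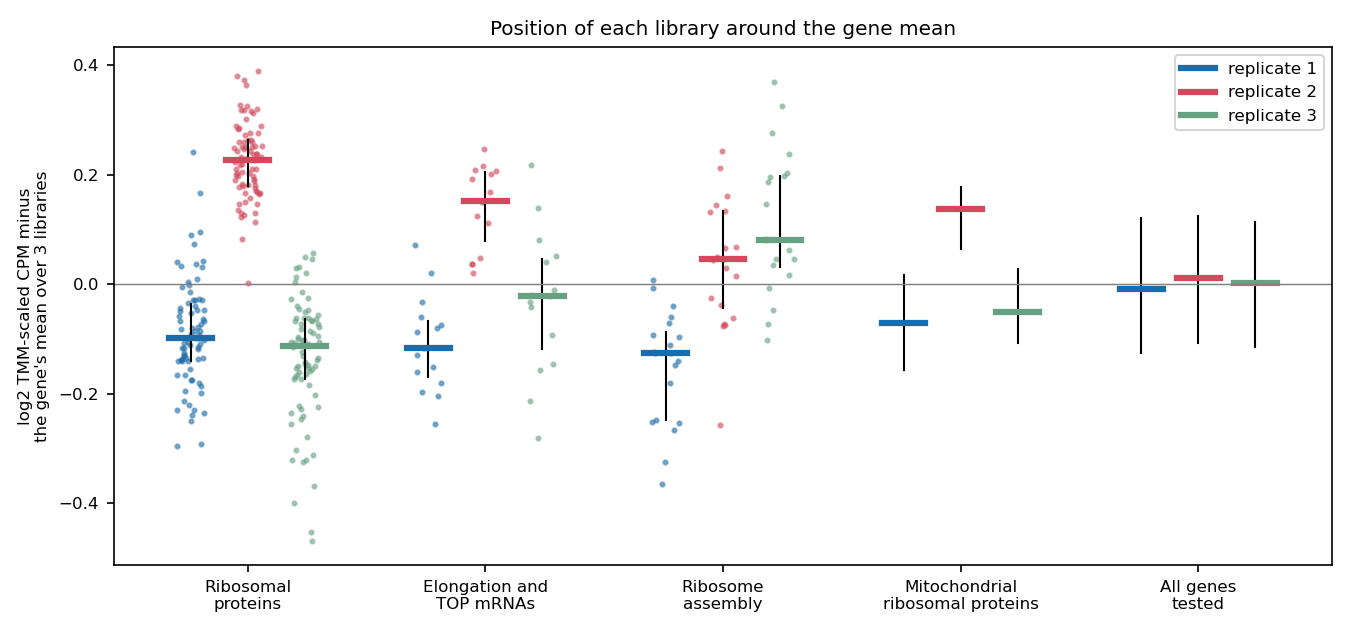
Position of each library around the mean of a gene over the 3 libraries, in log2 TMM-scaled CPM, for ribosomal protein genes, 2 lists of translation and assembly genes, mitochondrial ribosomal protein genes and all genes tested; points are genes (shown for the first 3 sets), thick bars medians and thin lines the middle 50% of genes. Ribosomal protein genes sit at a median of 0.23 in replicate 2, mitochondrial ones at 0.14 and all genes at 0.01.

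The sequence around the annotated starts was searched for CTTTC, a pyrimidine run common in TOP motifs. RefSeq promoter sequences of GRCm38.p6 matched 60 of the 80 genes. From 50 bases before to 50 bases after the start, 32 of 60 genes (53.3%) held CTTTC on the transcribed strand, against 13.2% of 16519 protein-coding genes with an entry and 15.9% of 69 mitochondrial ribosomal protein genes. On the other strand the shares were 11.7% for ribosomal protein genes and 12.2% for protein-coding genes. A match describes these letters only. The 5 windows below are from the most abundant genes with the motif within about 10 bases of the annotated start, with the motif in capitals.
Rps27 (chr3:90213630-90213659, minus strand): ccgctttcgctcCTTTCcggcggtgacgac
Rpl13a (chr7:45128719-45128748, minus strand): caagacctcctcCTTTCccaggcggctgcc
Rpl38 (chr11:114668568-114668597, plus strand): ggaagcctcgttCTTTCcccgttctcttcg
Rplp2 (chr7:141447639-141447668, plus strand): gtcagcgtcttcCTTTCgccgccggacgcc
Rps10 (chr17:27635223-27635252, minus strand): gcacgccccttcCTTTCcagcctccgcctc
In each of them the capitals sit inside a longer stretch of C and T.

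The 2 quantifications gave the same picture for all but a few genes. The second one was made from reads and the first from alignments to the transcriptome, and they were compared as rescaled TPM, written as second over first. In every library at least 2-fold lower in the second were 4 of 78 genes, as were 1.97% of the 13892 genes compared and 0.378% of the protein-coding ones. None of the 78 was at least 2-fold higher, as were 8.77% of genes compared. With TPM as deposited, not rescaled, 14 genes were lower, as were 6.97% of genes compared. For the other 74 the ratio lay between 0.70 and 1.33 in every library. The highest ratios belonged to Rpl35a at 1.33, 1.13 and 1.17, Rpl13a at 1.22, 1.26 and 1.08, Rpl31 at 1.14, 1.26 and 1.04, Rpl21 at 1.07, 1.24 and 1.07, and Rpl23 at 1.12, 1.14 and 1.096. These 5 were above 1 in every library, and none came near 2-fold.

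The 4 genes were Rpl12, Rps12, Rpl10 and Rpl5. Rpl12, a protein at the base of the stalk, had 5.95, 14.8 and 12.1 rescaled TPM in the second quantification, against 253, 384 and 323 in the first, ratios of 0.024, 0.039 and 0.037. Rps12 had 39.5, 58.7 and 47.1 rescaled TPM in the second, against 1117, 1358 and 1298 in the first. Rpl10 had 203, 247 and 197 in the second, against 1144, 1458 and 927 in the first. Rpl5 had 17.1, 17.8 and 17.3 in the second, against 49.96, 66.8 and 51.1 in the first. For each of the 4, every value of the second quantification was below every value of the first.

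All 4 have a copy elsewhere in the genome with an identical coding sequence. Annotated transcripts were aligned to each gene's coding sequence, and a transcript of another gene with at least 95% identity over at least 90% of it was called a copy. The identical copies named here were chosen by their counts in the second quantification, a choice that favours high counts there. The copy named for Rps12 is Rps12-ps3 (mm10 chr19:59322290-59322783, plus strand), annotated as protein coding. It had 6046, 9880.3 and 9747 counts in the second quantification, against 103, 123 and 112 in the first, while Rps12 itself (chr10:23785183-23787275, minus strand) had 253, 431 and 400.1 counts in the second, against 5974, 9902 and 9772 in the first. The copy was high where the gene was low, and the reverse.

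The same held for Rpl10 and Rpl12, whereas the copy of Rpl5 had more counts than the gene in both quantifications. Rpl10-ps3 (chr9:50344201-50344968), annotated as protein coding, had 9420, 16445 and 10326 counts in the second, against 391, 822 and 493 in the first, beside X-linked Rpl10. Gm10275 (chr10:29698746-29699380), a transcribed processed pseudogene, had 3982, 7883 and 6613 counts in the second, against 347, 646 and 545 in the first, beside Rpl12. Gm15500 (chr7:114705217-114706235), of the same class, had 5117, 8633 and 8011 counts in the second, against 3677, 6057 and 6182 in the first, beside Rpl5. Rpl5 held the smaller part of its family's reads in both quantifications, with 94.0% ± 0.2 of family counts in copies in the second and 73.1% ± 3.0 in the first (SD, n = 3).

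Annotated transcripts of the pairs were then aligned whole. That of Rps12-ps3, 494 nt, aligned to that of Rps12 with 0 mismatches. Gm15500 aligned over all 894 nt, hardly more than the coding sequence of 891 nt, Gm10275 over 634 of 635 nt and Rpl10-ps3 over 740 of 768 nt, each with 0 mismatches, so no base in the aligned part separates the pair. The windows of 60 bases below, from the coding sequence in the GENCODE M21 transcripts, show the gene, its identical copy and the best counted gap-free copy with mismatches, and capitals mark the positions where that last copy differs. They are positions 58 to 117 of the Rps12 coding sequence of 396 nt.
Rps12: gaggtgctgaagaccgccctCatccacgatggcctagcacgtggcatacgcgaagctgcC
Rps12-ps3: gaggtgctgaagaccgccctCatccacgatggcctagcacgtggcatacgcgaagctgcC
Rps12-ps9: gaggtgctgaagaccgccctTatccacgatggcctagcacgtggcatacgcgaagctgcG
Rps12-ps9 (chr8:123206623-123207021) has 2 mismatches in the coding sequence, both in this window, and had 2.99, 1.61 and 1.70 counts in the second quantification, against 1.8, 0 and 0 in the first.

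For Rpl12, positions 327 to 386 of 495 nt are shown, where Gm11425 (chr11:83027500-83027997) has 2 of its 4 mismatches.
Rpl12: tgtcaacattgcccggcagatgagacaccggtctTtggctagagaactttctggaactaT
Gm10275: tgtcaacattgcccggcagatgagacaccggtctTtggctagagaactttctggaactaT
Gm11425: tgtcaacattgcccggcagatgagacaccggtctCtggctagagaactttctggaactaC
Gm11425 had 482, 487 and 462 counts in the second, against 325, 388 and 371 in the first, a smaller gap between quantifications than that of Gm10275. For Rpl5, positions 566 to 625 of 891 nt hold 3 of the 10 mismatches of Rpl5-ps1 (chr1:14865072-14865965).
Rpl5: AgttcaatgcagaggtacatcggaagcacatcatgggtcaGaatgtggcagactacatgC
Gm15500: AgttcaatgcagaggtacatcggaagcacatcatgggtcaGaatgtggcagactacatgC
Rpl5-ps1: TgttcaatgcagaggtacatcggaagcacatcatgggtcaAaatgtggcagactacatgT
Rpl5-ps1 had 0, 0 and 5.13 counts in the second, against 0, 0 and 1.82 in the first.

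Summed with their copies, the quantifications differed little. The ratio of second to first, in counts scaled to 1000000 protein-coding counts, was 1.04, 1.01 and 1.02 for the Rpl12 family, 0.94, 0.95 and 0.95 for Rps12, 0.96, 0.97 and 0.97 for Rpl10, and 0.99, 1.00 and 0.99 for Rpl5. No family was 2-fold lower. Between 0.9 and 1.1 in every library were 76 of 79 families with counts, against 65 genes taken alone. The 3 families outside that band were Rpl28, at 0.73, 0.71 and 0.68, Rpl7, at 0.96, 1.18 and 1.27, and Rpl35a, at 1.35, 1.13 and 1.22. In rescaled TPM the ratio for Rpl28 was 1.00, 0.92 and 0.90, so its counts differed more than its TPM. Rpl28 has no copy by the rule used, and a cause for its lower counts was not tested.

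**Figure D3:**
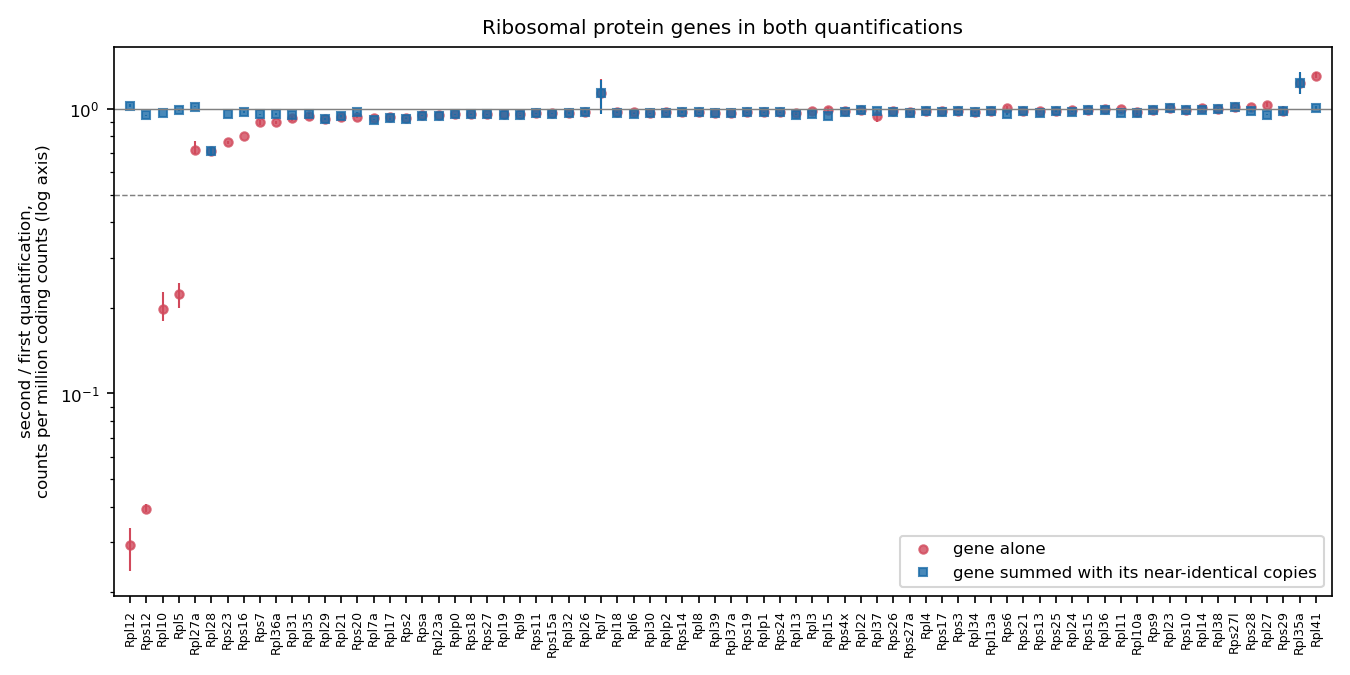
Ratio of second to first quantification in counts scaled to 1000000 protein-coding counts (log axis) for genes with a mean of at least 1 TPM, a few of which are not shown, sorted by replicate 1, for the gene alone and for the gene summed with its near-identical copies; symbols are means over 3 libraries and lines run from lowest to highest. Rpl12, Rps12, Rpl10 and Rpl5 lie below the dashed line at 0.5 alone and near 1 with their copies.

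Copies were common. By the rule, 546 copies belonged to 72 of the 80 genes, a median of 5 per gene and at most 56, for Rpl21. Of them 517 were annotated as processed pseudogenes, 14 as transcribed processed pseudogenes, 14 as protein coding and 1 as a lincRNA. Most were silent or nearly so in these tables, with 197 at 0 counts in every library in the second quantification and 275 in the first. A mean of at least 10 counts was reached by 36 copies in the second and 84 in the first. Together copies held 9.30% ± 0.35 of family counts in the second and 4.70% ± 0.17 in the first, and copies of Rpl12, Rps12, Rpl10 and Rpl5 made up 67.5% ± 0.5 of all copy counts in the second (SD, n = 3).

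Some genes shared reads with copies in both quantifications. Copies held 41.7% of the counts of the Rpl27 family in the second quantification and 46.1% in the first, 34.9% in the second and 33.4% in the first for Rpl35, and 42.7% in the second and 18.9% in the first for Rpl27a. Rpl27 has 2 copies with identical coding sequences, which received equal counts. Rpl41 went the other way. Its lincRNA copy Gm10076 (chr14:105681828-105682211) had 6.02, 16.8 and 11.4 counts in the second, against 2573, 4453 and 4349 in the first. Under 1% of family counts stood in copies for 61 genes in the second and for 44 in the first.

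Most of the RNA was assigned to protein-coding transcripts. Transcripts annotated as protein coding held 93.0% ± 0.3 of the TPM of the set, those with a retained intron 3.77% ± 0.07, targets of nonsense-mediated decay 2.41% ± 0.26 and processed transcripts 0.84% ± 0.04 (SD, n = 3). In 5 of 77 genes more than 50% of the TPM was in transcripts not annotated as coding in every library, as in 4% of 9346 protein-coding genes. The median share over the set was 0.61%, 0.28% and 0.50% in replicates 1, 2 and 3, against 3.23%, 1.20% and 2.11% over those protein-coding genes.

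The genes differed in the class of transcript. Rps20, a protein of the head of the small subunit, had 92.4%, 91.0% and 90.8% in such transcripts, nearly all in 1 of 582 nt annotated with a retained intron. Its annotated coding transcript of 3706 nt held 8.60% ± 0.89. Rps16, whose tail reaches the transfer RNA in the P site, had 83.9%, 88.9% and 87.4%, with 73.9% ± 3.4 in a retained-intron transcript of 518 nt. Rpsa had 56.9%, 56.9% and 63.1%, with 58.2% ± 3.6 in a nonsense-mediated decay transcript of 1101 nt. Rpl13a had 57.0%, 50.3% and 50.5%, spread over several, of which a retained-intron transcript of 464 nt held 29.1% ± 3.7. Rpl13a lay just above the limit, and Rps23, at 51.6%, 46.6% and 57.8%, just missed it.

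**Figure D4:**
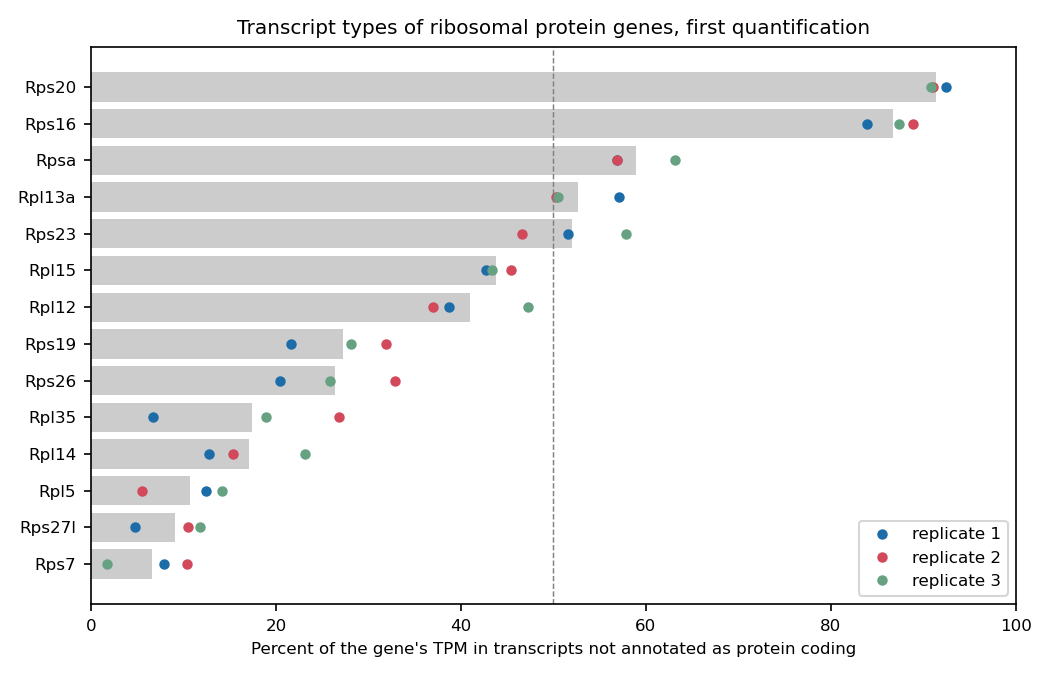
Percent of the TPM of a gene in transcripts not annotated as protein coding, first quantification, for genes with a mean of at least 5%, not all of which are shown; bars are means, points the 3 libraries and the dashed line 50%. Rps20 and Rps16 lie above 83% in every library, and Rpl13a and Rps23 lie at the line.

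The second quantification placed 6 genes above 50% in every library. It gave Rps20 93.3%, 92.7% and 91.4%, and Rpsa 74.0%, 74.8% and 75.5%. Rps23, at 60.9%, 59.0% and 60.9%, and Rpl12, at 84.5%, 82.4% and 81.4% of the few reads it kept there, were now included with Rps16 and Rpl13a. These shares say how reads were divided between overlapping annotated transcripts, and whether a retained intron is present in the cytosol was not tested.

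The genes are scattered, on 19 chromosomes, with 14 on chromosome 7 and 4 on the X chromosome, namely Rpl10, Rps4x, Rpl36a and Rpl39. Within 29 of the 80 lie 56 genes of snoRNAs, small RNAs that guide modification of ribosomal RNA, with 5 in Rpl4 and 4 in Rpl13a. The 29 hosts had a median of 170 TPM, against 178 TPM for the other 51 genes. Exons of 18 genes overlap a gene on the opposite strand and exons of 6 overlap another gene on the same strand, for instance Rpl28 with Ube2s and Rpl13a with Gm45713. The strand setting is not given in the sources used here, and reads of such pairs may not be told apart.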

How the data were processed

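The 3 libraries of 1 group were used. Expected counts and TPM per gene were deposited by the authors in tables laid out as by RSEM, with TPM and the percent of a gene's abundance per transcript in companion tables, per the file headers. A second set of transcript tables deposited by the authors, laid out as by kallisto, gives estimated counts and TPM, summed per gene here. Text deposited beside the tables names mm10 and GENCODE M21. Which programs made them, and whether strand was used, is not given in the sources used here. Membership itself reads no measured value, but the choice of this set, the gene lists and the tests was made with earlier results of these data known.

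Expected counts were rounded and fitted with edgeR 4.0.16 in R 4.3.3 (TMM, filterByExpr, dispersion 0, likelihood ratio test of libraries, Benjamini-Hochberg over all genes tested), with DESeq2 1.42.0 as an alternative. The fit was tested on simulated data. Copies were found with BLAST 2.17.0 on the GENCODE M21 transcripts. Other steps used Python 3.11.15, numpy 2.4.6, pandas 2.3.3 and scipy 1.17.1. Named genes were the paralog pairs, the 5 highest and 5 lowest of each subunit by mean TPM, the 5 with the largest SD, ratio between quantifications in either direction and noncoding share, chosen proteins and the extremes of 2 lists; Rpl11, Rpl38, Rps23, Rpl28, Rps10, Rpl35 and Rpl4 the copies and Mertk and Lyz2 were named after their values were seen. A few genes of the set are counted but not reported here by name. Intervals and floors cover counting error only.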

Additional observations from a re-analysis of the deposited data

How the results depend on the processing

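Of 121 alternative values, 100 kept their direction, size or side of the threshold and 0 reversed. The median level of 176 TPM became 79.0 TPM in the second quantification and 605 with TPM rescaled to protein-coding genes, since each is a share of another total. The count of genes at least 2-fold lower in the second quantification, 4, became 14 with TPM as deposited, where 6.97% of genes compared were lower, and 0 when genes were summed with near-identical copies, also with the wider set of copies at 90% identity over 50%, which was chosen after seeing the data. The 10 genes with a 1.5-fold range became 17 with no filter on low counts, 0 at 2-fold, and between 1 and 8 without 1 replicate (2 without replicate 2, 1 without replicate 3). A range over fewer libraries cannot be larger, apart from the refitted scaling and filter, and 2-fold is a stricter limit. Lower counts under these settings therefore follow from the measure itself. Genes beyond counting noise, 76, were 55 without replicate 2, 75 without replicate 1, 74 without replicate 3, and 77 both with no filter and in the second quantification. The 5 genes with most TPM in noncoding transcripts became 8 at 25%. Genes highest in replicate 2 numbered 76 with DESeq2 size factors, 77 in the second quantification, 74 with rescaled TPM and 78 of 79 with copies, where 33.1%, 37.1% and 34% of all genes were highest there under the first 3; these settings were chosen after seeing the data. The large subunit stayed lower, by 0.18 on the log2 scale in the second quantification to 0.79 with means in place of medians. The means include the near-silent large subunit paralogs Rpl10l, Rpl3l and Rpl39l. With the paralogs left out the difference of medians was -0.26. Of 45 recomputed paralog differences, 11 moved beyond 1 SD, with the 0.1 pseudocount or the second quantification. No paired analysis was possible because the series has 1 group. Depth limits Rpl3l, Rpl10l and Rpl39l, at 19 counts or fewer.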
